A study of Mus musculus with 12 samples.

Results

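The 9 genes described here encode the proteins that edit, cut, carry or degrade double-stranded RNA: Adar, Drosha, Dgcr8, Dicer1, Tarbp2, Prkra, Stau1, Pnpt1 and Supv3l1. They were chosen by name from the 55421 genes of the series, and all 9 were measured and passed the filter on low values. RNA-seq was made from 12 libraries of B16F10, a mouse melanoma cell line that forms pigmented tumours, in 4 groups of 3 libraries. Vector control cells (VC) and cells in which Bub1, a kinase of the spindle checkpoint, was disrupted with CRISPR-Cas9 (Bub1KO) were left untreated or given 8 Gy of radiation. All groups share the B16F10 background and differ in Bub1 and in dose. The sources used here do not give the guide, the number of Bub1KO clones or the time from irradiation to extraction. The series' title concerns double-stranded RNA that builds up after DNA damage when Bub1 is lost. The comparisons ask whether the RNA of these 9 genes differs with genotype, with radiation, or with both.

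Long double-stranded RNA made by a cell resembles that of a virus, and cells hold it down in several ways. Adar deaminates adenosine to inosine in paired RNA, which weakens the pairing and keeps it from the sensors Mda5 and Pkr. Drosha and its partner Dgcr8 form the Microprocessor, which cuts hairpins out of primary microRNA transcripts in the nucleus. Dicer1 cuts the exported hairpins in the cytoplasm with the help of Tarbp2 and Prkra. Stau1 binds paired stretches of mRNA in transport and decay. Pnpt1, a 3′ to 5′ exonuclease, and the helicase Supv3l1 degrade RNA in mitochondria, where both strands of the genome are transcribed.

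Libraries held 19380726 to 33087366 reads in genes. Values are normalized counts, the read count of a gene divided by 1 size factor for its library. Bub1 RNA in Bub1KO was 56.7% of VC without irradiation and 67.3% after it, and the genotypes did not overlap at either dose. A small CRISPR lesion need not remove a transcript, so these values do not show whether the protein was lost. The summed level of 7 melanocyte markers, all of them detected, ranged from 386910.7 to 445913 in the VC and from 542889.9 to 578932 in the Bub1KO libraries. Its largest member, Dct, had irradiated means of 169287 in VC and 269057 in Bub1KO, and Tyr, Pmel and Mlana were also higher there. Mitf (12637 and 11720), Sox10 (10012.5 and 8392) and Tyrp1 (104998 and 97145) had lower irradiated means in Bub1KO than in VC. Of 6 leukocyte and macrophage markers, Cd3e and Adgre1 were at 0 in all 12 libraries, and the sum of the 6 was 18.3 to 26.5 in the untreated, 101 to 131 in the irradiated VC and 209 to 225 in the irradiated Bub1KO libraries. The sum of 6 fibroblast and endothelial markers was 175 to 240 in the untreated, 332 to 344 in the irradiated VC and 229 to 269 in the irradiated Bub1KO libraries. Its members went opposite ways: in VC the mean of Col1a2 was 80.4 untreated and 263 irradiated, and that of Pdgfra 116 and 42.1, while Cdh5 and Kdr were near 0. The leukocyte sum was mostly Cd68, with means of 24.1 and 113 in VC and 19.4 and 216 in Bub1KO, untreated and irradiated. That of 4 keratinocyte and epithelial markers was 57.2 to 101 in all but irradiated Bub1KO, where it was 120 to 133, nearly all of it Cdh1. The part of these shifts in the results was not tested. Untreated Bub1KO replicate 1 stood apart, with a chi-square per gene of 55.3 and 51.6 to the other replicates of its group, against 8.02 between those. Its genes of high GC content were low against genes of low GC content, with a log2 gap of -0.775 against -0.00323 and 0.0524. This gap also split the doses. No untreated library exceeded 0.0524, and the VC ones among them lay from -0.423 to -0.189. Every library given 8 Gy was higher, the lowest at 0.115 (Bub1KO replicate 3) and the highest at 0.412 (VC replicate 2). Dose and the GC gap thus shifted together, and the alternatives below include fits with GC trends removed. Whether replicates were separate cultures is not said in the labels, so p-values measure a spread that may be technical.

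Sequence windows from RefSeq (GRCm38.p6), 250 bases before to 50 bases after a start site, were held for all 9 genes, 12 windows in all. They were searched on both strands for letters bound by interferon-activated factors, since Adar is known as an interferon-stimulated gene. A form of the interferon-stimulated response element, GGAA and GAAA parted by 2 bases, stood in 3 of the 12 windows, those of Adar (chr3:89730468-89730767), Pnpt1 (chr11:29130494-29130793) and Stau1 (chr2:166996250-166996549), and in 2.72% of all 32851 windows. The sites are shown with 10 bases on each side, 5′ to 3′ on the gene's strand, because Adar and Pnpt1 hold the same letters but differ below in their response to radiation. Capitals mark the match.
Adar: gccttttcaaGGAAACGAAAgtgaactctg
Pnpt1: caggctccacGGAAACGAAActgcgtccga
Stau1: ctgtaggaagGGAACAGAAAgcctagaaaa
The match began 27 bases after the start site in Adar (chr3:89730735-89730764), 67 bases before it in Pnpt1 (chr11:29130667-29130696) and 231 bases before it in Stau1 (chr2:166996511-166996540, minus strand). The Adar window belongs to an internal start, and the other Adar windows, at the start of the gene, held no match. The form with GAAA in both places stood in 0 of the 12 windows and in 3.44% of all. The STAT site TTCNNNGAA stood in 1, that of Adar, where it overlaps the match shown, and in 8.3% of all windows. Its stricter form TTCCNGGAA stood in 0 of the 12 and in 1.15% of all. These are matches of letters and were not tested as binding sites.

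Radiation moved more of the 9 genes than genotype did, as it did among all genes. In VC, 6 of 9 fell and 0 rose, against 25.8% lower and 27.6% higher among all 14721 genes tested (limma on log2 of the normalized count plus 1, Benjamini-Hochberg adjusted p under 0.05). Adar was the only member with a positive difference there (unadjusted p 0.122), and it was not called with edgeR or DESeq2, which called 6 and 7 members. In Bub1KO, 4 of 9 fell and 1 rose, against 23.9% lower and 25.4% higher among all genes. The median of the 9 log2 differences was -0.42 in VC and -0.24 in Bub1KO, where the medians of all genes were 0.02 and 0.03. Comparisons that have a group in common share its 3 libraries. In bulk RNA fewer cells with a transcript and less transcript per cell cannot be told apart.

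Genotype gave smaller median differences, among the 9 as among all genes. The median absolute log2 difference of the 9 was 0.103 without irradiation and 0.108 after it. For radiation it was 0.425 in VC and 0.335 in Bub1KO. Over all genes the same medians were 0.173, 0.194, 0.382 and 0.352. Prkra went the other way, with 0.225 and 0.232 by genotype and -0.162 and -0.155 by radiation. Without irradiation 0 of 9 members were called, against 2.31% of all genes higher and 1.71% lower. Only Dgcr8 had an unadjusted p under 0.05, which makes 1 member, and edgeR and DESeq2 called 0. After irradiation 2 of 9 were higher in Bub1KO and 0 lower, against 14.3% and 16.4% of all genes. With so many genes called, 2 of 9 higher is near the background. Of the 0 lower, Dgcr8 had an unadjusted p of 0.047 with limma across all genes, and edgeR and DESeq2 also called 2 members in all. The plot of normalized counts in each library shows the fall of Drosha and Dicer1 with dose and the rise of Adar in irradiated Bub1KO.

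**Figure D1:**
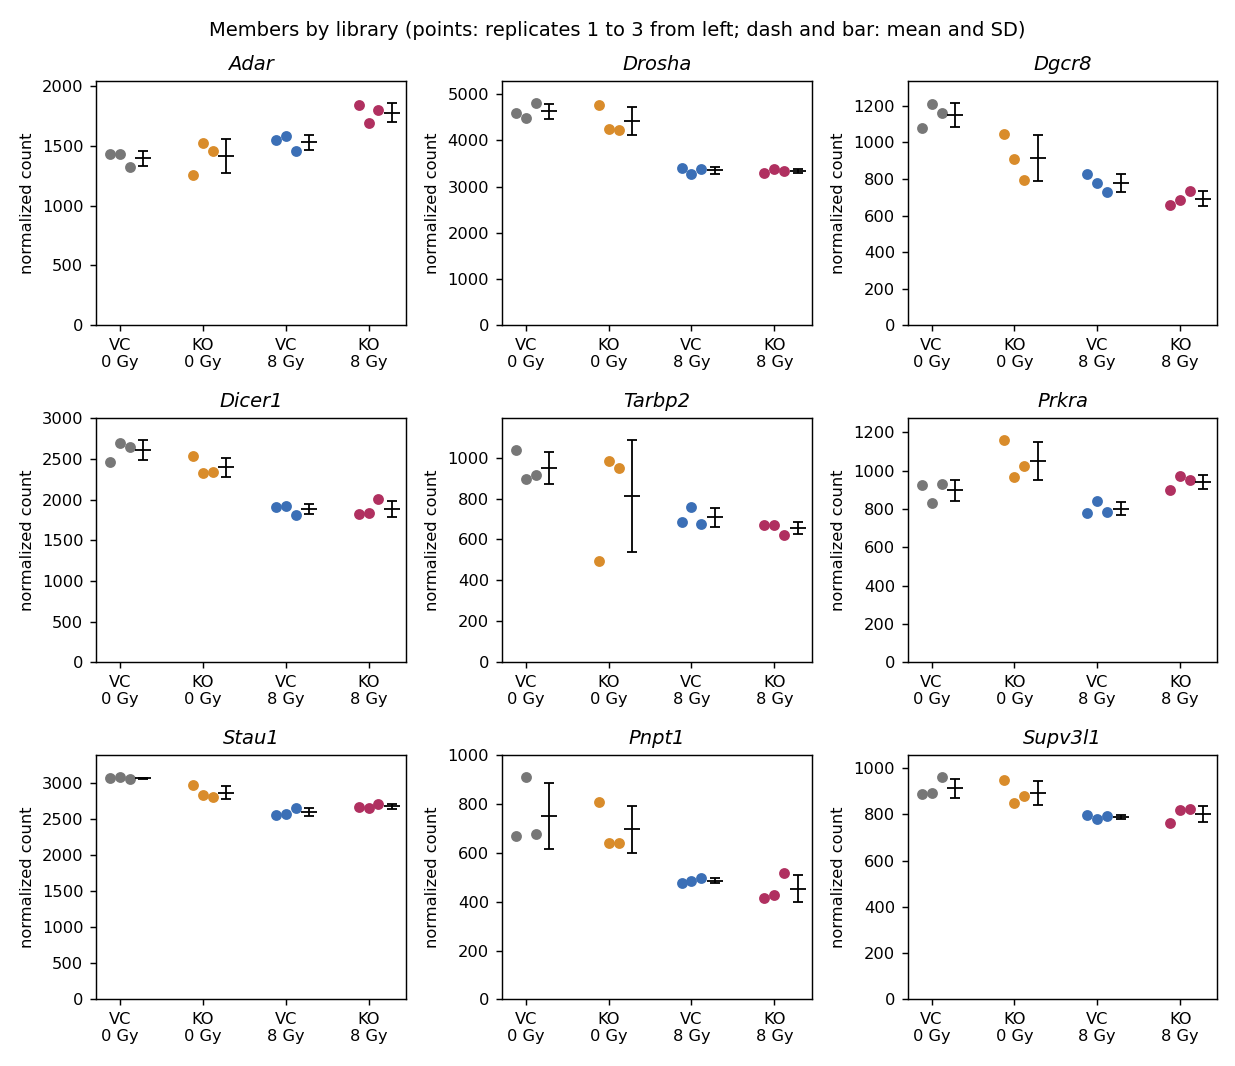
Normalized count (y axis, from 0) of each of the 9 genes in the 12 libraries, by genotype (KO stands for Bub1KO) and dose, with points for replicates 1 to 3 and a dash with a bar for the mean ± SD of 3 libraries. Drosha lies between 4234 and 4806 in the untreated and between 3272 and 3414 in the irradiated libraries, and Tarbp2 in untreated Bub1KO replicate 1, at 495, lies below every other library.

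**Figure D2:**
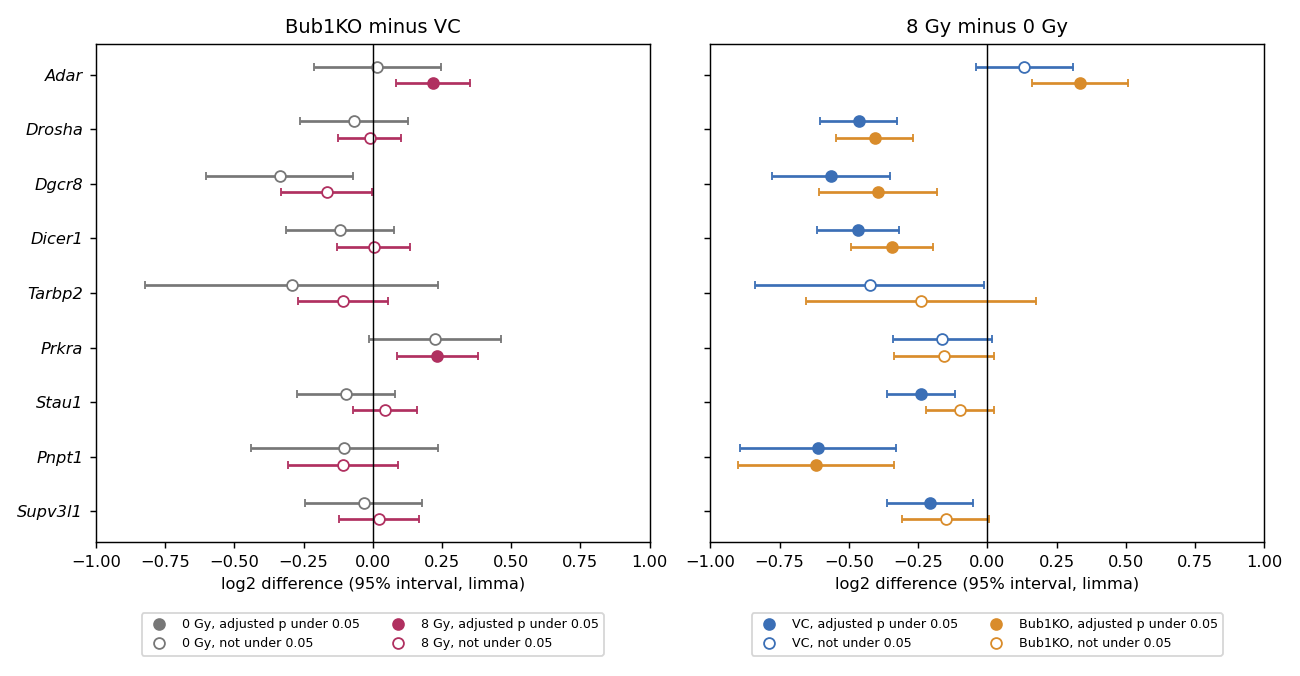
Log2 difference (x axis) with its 95% interval from limma for each gene, Bub1KO minus VC on the left and 8 Gy minus 0 Gy on the right, with filled points for an adjusted p under 0.05. Between genotypes only Adar and Prkra after 8 Gy are filled, calls made in 8 and 9 of 14 alternatives. For radiation 6 points in VC and 5 in Bub1KO are filled.

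Adar, the editing enzyme (ENSMUSG00000027951.16, GRCm38 chr3:89715022-89753446), was highest in irradiated Bub1KO. Its normalized counts were 1429.8, 1428 and 1323 in untreated VC and 1257, 1524 and 1458.5 in untreated Bub1KO. Irradiated VC had 1551.5, 1579 and 1455.5, and irradiated Bub1KO 1842, 1691 and 1800.4. Every irradiated Bub1KO library was above all 9 others, while the untreated genotypes overlapped. In Bub1KO it rose with radiation from 1413 ± 139 to 1778 ± 78.1 (SD, n = 3), a log2 change of 0.34 (SE 0.0809, limma adjusted p = 0.00361), and this call held in 14 of 14 alternatives. With GC trends removed the change was smaller, 0.20, and over the alternatives the limma, edgeR or DESeq2 adjusted p was at most 0.0239. The same difference in VC was 0.13 (SE 0.0809, limma adjusted p = 0.18), with each irradiated VC library above each untreated one, and 0.04 with GC trends removed. Between the irradiated genotypes it was 0.22 higher in Bub1KO (SE 0.0624, limma adjusted p = 0.0186). That call was made in 8 of 14 alternatives. It was lost with no filter, in the fit of all 12 libraries, with the replicate block and GC trends removed, and without VC replicate 1 or 3 or Bub1KO replicate 1 (limma adjusted p 0.0512 to 0.0882), and the adjusted p in the authors' deposited table was 0.0697. The untreated genotypes differed by 0.02 (95% interval -0.21 to 0.24). The difference between the radiation responses of Bub1KO and VC was 0.20 (SE 0.114, limma adjusted p = 0.517), so a larger rise in Bub1KO than in VC was not shown.

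Gene counts do not separate the interferon-induced long form of Adar from the constitutive short one, and editing of RNA itself was not analysed here. The 3′ end of Adar overlaps the oppositely transcribed Chrnb2, a nicotinic receptor subunit, over 1365 exon bases. The library kit keeps the strand, but the strand setting of the counting is not given in the sources used here. Chrnb2 was at 102 ± 16.4 in untreated VC and 165 ± 6.68 in irradiated Bub1KO normalized counts, against 1394 and 1778 for Adar.

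The other editing genes were low or absent. Adarb1, the second catalytic editing enzyme, ranged from 116 to 188 over the 12 libraries and passed no comparison (limma adjusted p 0.091 to 0.711). Adarb2, a family member without known catalytic activity, had a value of 1.05 in 1 library and was at 0 in 11. The testis genes Adad1 and Adad2 were at 0 in all 12.

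Drosha, the nuclease of the Microprocessor (ENSMUSG00000022191.16, GRCm38 chr15:12824815-12935291), fell with radiation in both genotypes. It was at 4586, 4490.2 and 4806 in untreated VC and at 4770.0, 4252 and 4234 in untreated Bub1KO. After irradiation it was at 3414, 3272 and 3376.5 in VC and at 3285.5, 3376 and 3328 in Bub1KO. No irradiated library reached the lowest untreated one, and at each dose the genotypes overlapped. The irradiated level was 72.5% of the untreated in VC (log2 -0.46, SE 0.0646, limma adjusted p = 4.75e-05) and 75.4% in Bub1KO (-0.41, SE 0.0646, limma adjusted p = 0.000154). The genotypes differed by -0.07 without irradiation (95% interval -0.26 to 0.13) and by -0.01 after it (-0.12 to 0.10).

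Dgcr8, which binds the hairpin for Drosha (ENSMUSG00000022718.12, GRCm38 chr16:18253948-18289246), was at 1081, 1209 and 1162 in untreated VC and at 1045, 909.8 and 793 in untreated Bub1KO. Irradiated VC had 829.8, 778 and 727, and irradiated Bub1KO 658, 685 and 735. All 3 untreated Bub1KO libraries lay below all 3 of VC, replicate 1 only just, and the irradiated genotypes overlapped. Radiation lowered it to 67.7% in VC (log2 -0.56, SE 0.0995, limma adjusted p = 0.000334) and to 75.6% in Bub1KO (-0.39, SE 0.0995, limma adjusted p = 0.00471). The untreated difference between genotypes was -0.34 (SE 0.118, limma adjusted p = 0.162) and was not called. It passed without Bub1KO replicate 1, the library that stood apart (-0.44, limma adjusted p = 0.00831), with GC trends removed (0.0352) and with all 12 libraries in the limma fit (0.0429). The authors' deposited table gives it an adjusted p of 0.0264. The oppositely transcribed Trmt2a shares 825 exon bases with Dgcr8 and was at 1610.2 ± 110 in untreated VC and 1566 ± 238 in untreated Bub1KO.

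The Microprocessor is known to cut hairpins within the Dgcr8 mRNA. One such hairpin, Mir1306, lies whole within a coding exon of Dgcr8 (chr16:18284239-18284317, minus strand, RefSeq, GRCm38.p6). It is shown because Drosha and Dgcr8 RNA fell together with radiation, with its mature arms in capitals. Dicer1 and Pnpt1 also fell in both genotypes, so the joint fall was not particular to this pair. Whether the hairpin bears on it was not tested.
Mir1306: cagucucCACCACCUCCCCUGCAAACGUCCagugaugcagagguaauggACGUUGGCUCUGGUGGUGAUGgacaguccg
Mir1306 itself was listed at 0 in all 12 libraries, so its processing was not measured. The ratio of Dgcr8 to Drosha within a library was 0.236, 0.269 and 0.242 in untreated VC and 0.219, 0.214 and 0.187 in untreated Bub1KO. After irradiation it was 0.243, 0.238 and 0.215 in VC and 0.200, 0.203 and 0.221 in Bub1KO. The untreated genotypes did not overlap in this ratio, and the irradiated ones did.

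Dicer1, the cytoplasmic nuclease (ENSMUSG00000041415.10, GRCm38 chr12:104687742-104751952), was at 2469, 2701 and 2652 in untreated VC and at 2535, 2323 and 2344 in untreated Bub1KO. Irradiated VC had 1913, 1923 and 1817, and irradiated Bub1KO 1828.5, 1835 and 2004. The irradiated libraries were all below the untreated ones. The fall was to 72.3% in VC (log2 -0.47, SE 0.069, limma adjusted p = 7.72e-05) and to 78.7% in Bub1KO (-0.35, SE 0.069, limma adjusted p = 0.000921). Irradiated Bub1KO and VC differed by 0.00 (95% interval -0.13 to 0.14).

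Tarbp2, which steadies Dicer1 and restrains Pkr (ENSMUSG00000023051.11, GRCm38 chr15:102518192-102523676), was at 1039, 896.5 and 916 in untreated VC. In untreated Bub1KO it was at 495, 985.5 and 951, with replicate 1 at 51.1% of the mean of the other replicates. The irradiated values were 687, 761 and 675 for VC and 672, 672.5 and 623 for Bub1KO. Apart from that one library, every irradiated library was below every untreated one. Neither radiation comparison was called, with -0.42 in VC (limma adjusted p = 0.0779) and -0.24 in Bub1KO (limma adjusted p = 0.322). Without untreated Bub1KO replicate 1 the difference in Bub1KO was -0.56 (limma adjusted p = 4.47e-05). With only the 6 VC libraries in the fit, an alternative added after the data were seen, that in VC passed at the same -0.42 (limma adjusted p = 0.000903).

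The library that stood apart bears on the members unequally. Tarbp2 has the highest GC content of the 9 in its longest transcript, coding or not (54.1%), and Adar the next (53.4%). These were the members below their replicates in that library, at 51.1% and 84.3%. The other 7 were at 105% to 126%, with Pnpt1, of the lowest GC content (39.6%), at 126%. Not all of these followed GC content in order, with Drosha (51.9%) at 112% and Stau1 (48.3%) at 105%. Whether GC content underlies these shifts was not tested. With GC trends removed, Tarbp2 passed for radiation in VC (-0.55, limma adjusted p = 0.00368) and in Bub1KO (-0.39, limma adjusted p = 0.0277).

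Prkra, the other Dicer1 partner and an activator of Pkr (ENSMUSG00000002731.6, GRCm38 chr2:76629898-76648015), was higher in Bub1KO. It was at 926, 831 and 932 in untreated VC and at 1158, 967 and 1024 in untreated Bub1KO. The irradiated values were 779, 839.6 and 782 for VC and 901, 971 and 948.5 for Bub1KO. At each dose all Bub1KO libraries lay above all VC libraries. Prkra was called after irradiation, from 800.3 ± 34.1 to 940.0 ± 35.7 (log2 0.23, SE 0.068, limma adjusted p = 0.0204), and not without it (0.22, SE 0.105, limma adjusted p = 0.285). The irradiated call was made in 9 of 14 alternatives and was lost with no filter, with all 12 libraries and without VC replicate 1 or 3 or Bub1KO replicate 2 (limma adjusted p 0.0531 to 0.0856). The authors' deposited table gives it an adjusted p of 0.0668. Radiation gave -0.16 in VC and -0.16 in Bub1KO, neither called (limma adjusted p = 0.119 and 0.141).

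The partners of Dicer1 were also set against each other as a ratio within each library. The ratio of Tarbp2 to Prkra was 1.12, 1.08 and 0.982 in untreated VC and 0.428, 1.02 and 0.929 in untreated Bub1KO. With radiation this ratio was 0.881, 0.906 and 0.863 in VC and 0.746, 0.693 and 0.657 in Bub1KO. All irradiated Bub1KO libraries were below all irradiated VC libraries, which were below all untreated VC libraries. The untreated genotypes overlapped. No test was run on these ratios.

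**Figure D3:**
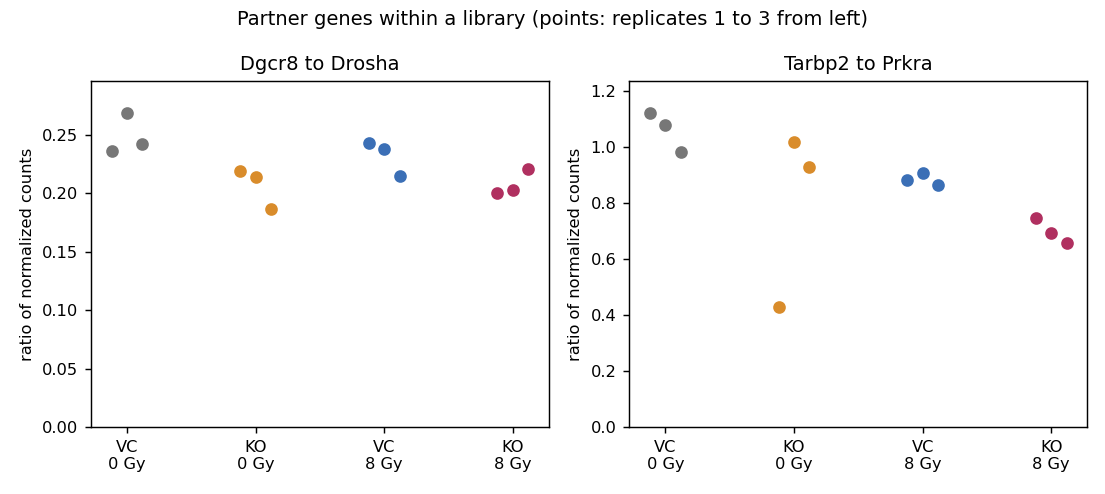
Ratio of normalized counts within each library (y axis, from 0), Dgcr8 to Drosha on the left and Tarbp2 to Prkra on the right, by genotype (KO stands for Bub1KO) and dose with points for replicates 1 to 3. The ratio of Tarbp2 to Prkra is 0.657 to 0.746 in irradiated Bub1KO and 0.982 to 1.12 in untreated VC, with untreated Bub1KO replicate 1 at 0.428.

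Stau1, the carrier of paired mRNA (ENSMUSG00000039536.16, GRCm38 chr2:166947549-166996299), had its smallest spread in untreated VC, at 3058.5, 3071 and 3049. It was at 2965, 2826 and 2799 in untreated Bub1KO, at 2549, 2569 and 2655 in VC given 8 Gy and at 2663, 2646 and 2705 in Bub1KO given 8 Gy. The irradiated libraries were below the untreated ones in each genotype. It fell with radiation in VC to 84.7% (log2 -0.24, SE 0.0573, limma adjusted p = 0.00304), while the difference in Bub1KO was -0.10 (SE 0.0573, limma adjusted p = 0.167). These responses differed by 0.14 (SE 0.081, limma adjusted p = 0.524), which was not called.

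Pnpt1, the mitochondrial exonuclease (ENSMUSG00000020464.15, GRCm38 chr11:29130744-29161828), had the lowest irradiated level relative to its untreated level among the 9, by the group means of the deposited values. It was at 669.7, 909 and 678 in untreated VC and at 809, 642 and 642 in untreated Bub1KO. Radiation left 478.5, 485 and 498 in VC and 416, 428 and 518 in Bub1KO. No irradiated library reached an untreated one. It fell to 64.7% in VC (log2 -0.61, SE 0.131, limma adjusted p = 0.00144) and to 65% in Bub1KO (-0.62, SE 0.131, limma adjusted p = 0.00145). Over the alternatives its log2 change ran from -0.688 to -0.456 in VC and from -0.716 to -0.478 in Bub1KO. The changes of Drosha with GC trends removed, -0.507 in VC and -0.488 in Bub1KO, lie within these ranges. The order of the members can therefore differ between alternatives. The libraries in which Pnpt1 was highest, VC replicate 2 and Bub1KO replicate 1, also had the widest GC gaps of their untreated groups (-0.42 and -0.78). With the letters shown above in common, Adar and Pnpt1 moved in opposite directions with radiation in Bub1KO. The matches lie differently to their start sites, and whether they bear on either change was not tested.

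Supv3l1, the helicase that feeds RNA to Pnpt1 (ENSMUSG00000020079.15, GRCm38 chr10:62429209-62449738), was at 886, 891 and 959 in untreated VC and at 946, 848 and 880.4 in untreated Bub1KO. With radiation VC had 795, 781 and 792, and Bub1KO 764, 819 and 825. The doses did not overlap in either genotype, but the steps were small. In VC it fell to 86.5% (log2 -0.21, SE 0.0728, limma adjusted p = 0.027), a call lost with no filter and without VC untreated replicate 3 or any 1 of the irradiated VC replicates (limma adjusted p 0.0501 to 0.0945). In Bub1KO the difference was -0.15 (limma adjusted p = 0.101), and it passed with GC trends removed (-0.17, limma adjusted p = 0.0277, or 0.0435 with the replicate block as well). The ratio of Supv3l1 to Pnpt1 was 0.980 to 1.41 in the untreated and 1.59 to 1.92 in the irradiated libraries. The GC gap also split the doses, and the longest transcripts of Supv3l1 and Pnpt1 differ in GC content (50.3% and 39.6%). This ratio was not tested and was not computed with GC trends removed.

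The difference between genotypes in the response to radiation was called for 0 of 9 members, against 0.136% of all genes higher and 0.414% lower. With limma 0 members had an unadjusted p under 0.05, and edgeR and DESeq2 called 0. The values ran from -0.01 for Pnpt1 to 0.20 for Adar, and 8 of 9 were positive. Their median was 0.12 and that of all genes 0.00. The 9 values share the same 12 libraries, untreated Bub1KO replicate 1 among them. The widest interval was that of Tarbp2, from -0.40 to 0.77, so a moderate difference in either direction would not have been seen there.

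Levels of different genes were compared as normalized counts per kb of the longest coding transcript. The order of the genes depends on this choice of length. All exons joined span 4549 bases in Tarbp2 against 1523 in its longest coding transcript. In Adar these lengths are 8118 and 5909, and in Dicer1 16750 and 9851. The ranks below hold for this measure only, and no other length was tried. In untreated VC Drosha was highest (1012.5 ± 35.4 per kb), then Stau1 (857 ± 3.1), Tarbp2 (624 ± 50.9), Prkra (555 ± 35.3) and Supv3l1 (350.3 ± 15.6). Pnpt1 (278 ± 50.3), Dgcr8 (266 ± 14.97), Dicer1 (265 ± 12.4) and Adar (236 ± 10.3) followed. The ranges of Pnpt1, Dgcr8 and Dicer1 overlapped, and no other neighbours in this order did. In irradiated Bub1KO the order of these levels was another. Stau1 (749 ± 8.44 per kb) stood above Drosha (729 ± 9.96) and Prkra (582 ± 22.1) above Tarbp2 (430.5 ± 18.7). Adar (301 ± 13.2), lowest of the 9 in untreated VC, overlapped Supv3l1 (308 ± 13.0) and stood above Dicer1 (192 ± 10.1), Pnpt1 (168 ± 20.6) and Dgcr8 (160.4 ± 9.06). The range of Pnpt1 overlapped those of Dicer1 and Dgcr8 there.

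**Figure D4:**
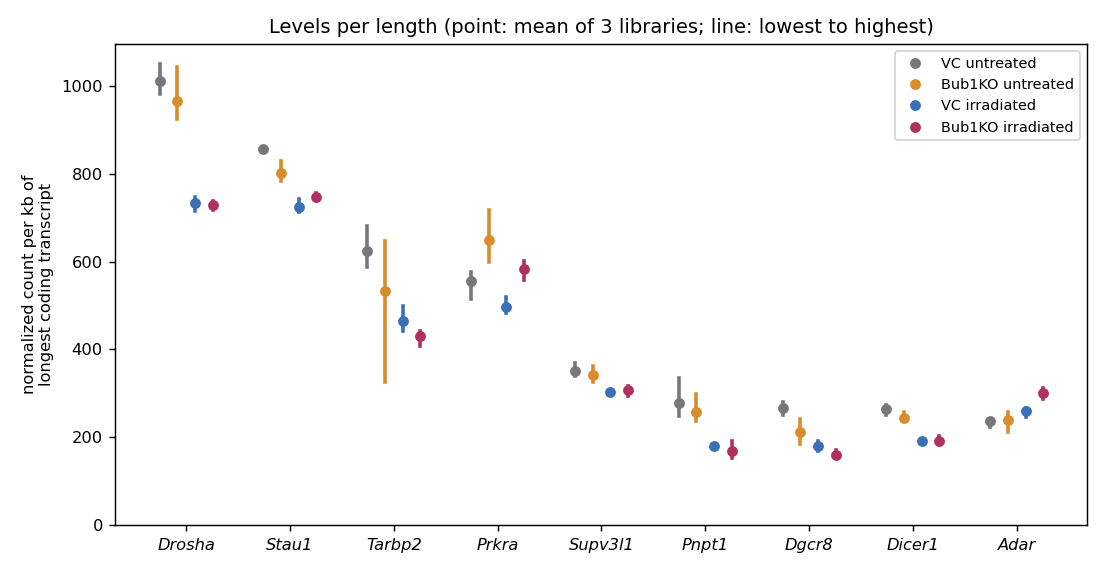
Normalized count per kb of the longest coding transcript (y axis, from 0) for the 9 genes in order of their level in untreated VC, with a point for the mean of 3 libraries and a line from the lowest to the highest. Adar goes from 236 in untreated VC to 301 in irradiated Bub1KO, while Drosha goes from 1012.5 to 729.

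The wider pathway was followed in a list of 55 genes, of which 50 were tested. In VC 33 of the 50 fell with radiation and 3 rose, where 25.8% of all genes tested fell and 27.6% rose. In Bub1KO 29 fell and 2 rose, where 23.9% of all genes fell and 25.4% rose. The list's medians were -0.35 and -0.28, and those of all genes 0.02 and 0.03. Between genotypes 1 gene was lower and 0 higher in untreated Bub1KO, against 1.71% and 2.31% of all genes. After irradiation 12 were lower and 4 higher, against 16.4% and 14.3% of all genes. Of the 50, 0 were higher in untreated Bub1KO at an unadjusted p under 0.05 with limma, and edgeR and DESeq2 called 0 higher. The interaction called 0 of the 50 with limma, edgeR or DESeq2, and 4 had an unadjusted p under 0.05 with limma. Without Bub1KO untreated replicate 1, 11 genes were lower and 1 higher in untreated Bub1KO, and the interaction called 2 higher and 4 lower. Over all genes the calls without that library were 2736 in place of 591 between untreated genotypes and 1447 in place of 81 for the interaction. The genes that rose were Ago4, an Argonaute, in both genotypes, Stau2 and Fastk in VC and Eif2ak2 in Bub1KO. Those higher in irradiated Bub1KO than in VC were Eif2ak2, Strbp, Slirp and Hsd17b10. Stau2, Fastk, Ago4, Strbp, Slirp and Hsd17b10 are named after their values were seen.

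Eif2ak2 encodes Pkr, the kinase that Prkra activates and Tarbp2 restrains. It was at 1813 ± 53.1 normalized counts in VC and 2426 ± 266 in Bub1KO after 8 Gy (log2 0.41, SE 0.0745, limma adjusted p = 0.00116, lost with no filter at 0.061), and it rose by 0.63 with radiation in Bub1KO (limma adjusted p = 0.00028). Among the other binders of double-stranded RNA, 6 of 9 fell and 1 rose in VC (all genes 25.8% and 27.6%), and 5 of 9 fell and 1 rose in Bub1KO (23.9% and 25.4%). Dhx9, a helicase that unwinds paired RNA, went from 14477 ± 1042 to 8349.5 ± 331 in VC (log2 -0.79, SE 0.0833, limma adjusted p = 3.96e-06) and from 13712 ± 1617 to 7845 ± 97.1 in Bub1KO. Ilf2 fell in both genotypes (log2 -0.75 and -0.70). Zfr, a zinc finger RNA-binding protein, was lower in irradiated Bub1KO than in VC (log2 -0.43, limma adjusted p = 0.000786, lost with no filter at 0.0604). Cdkn2aip was the 1 gene lower in untreated Bub1KO (log2 -0.55, limma adjusted p = 0.0487), a call lost in 8 of 14 alternatives.

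Of 15 tested genes for microRNA export, loading and turnover, 8 fell and 1 rose in VC (all genes 25.8% and 27.6%), and 7 fell and 1 rose in Bub1KO (23.9% and 25.4%). Eri1, an exonuclease that trims small RNA, fell in both genotypes (log2 -0.68 and -0.77, limma adjusted p = 1.21e-05 and 3.76e-06). Tnrc6a, which joins Argonaute to the decay enzymes, fell by 0.48 in VC. Xpo5, the exporter of hairpins, and Ran, the GTPase it needs, were lower in irradiated Bub1KO than in VC (log2 -0.23 and -0.31), calls lost in 4 and 5 of 14 alternatives. Without VC irradiated replicate 2 the difference for Ran was -0.16 (limma adjusted p = 0.0786). Ran fell with radiation in Bub1KO by 0.82 (limma adjusted p = 2.43e-05). Lin28a and Lin28b, which block let-7 processing, were at 0 in all 12 libraries.

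Staufen-mediated decay shares Upf1 with nonsense-mediated decay, and of 9 genes of these routes 8 fell in VC (all genes 25.8%) and 7 in Bub1KO (23.9%). Smg5, which recruits decay enzymes to Upf1, fell by 0.81 on the log2 scale in Bub1KO (limma adjusted p = 5.8e-05) and was lower in irradiated Bub1KO than in VC (-0.45, limma adjusted p = 0.000124). Upf3a fell in VC (log2 -0.57), and Upf2 fell in Bub1KO by 0.41. Upf1 was lower in irradiated Bub1KO (-0.27, limma adjusted p = 0.00815), a call lost in 3 of 14 alternatives, and -0.16 with GC trends removed.

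Of 16 genes for mitochondrial RNA, the compartment of Pnpt1 and Supv3l1, 11 fell and 1 rose in VC (all genes 25.8% and 27.6%) and 10 fell in Bub1KO (23.9%). Fastkd3 fell in both (log2 -0.60 and -0.79, limma adjusted p = 6.73e-05 and 6.57e-06). Rexo2, which clears the short fragments the degradosome leaves, fell in VC (log2 -0.56), and Lrpprc, which keeps mitochondrial mRNA stable, fell in Bub1KO (log2 -0.46). Polrmt, the mitochondrial RNA polymerase, and Tbrg4 were lower in irradiated Bub1KO than in VC (log2 -0.66 and -0.36), and both calls were lost with all 12 libraries in the limma fit (adjusted p 0.157 and 0.063).

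As a description, the tested genes most like each member over the 12 libraries were found by Pearson's r of log2 values. All points share the radiation contrast and the same libraries, so a high r is common. Adar was most like Ogdh (0.971) and Pip4k2c (0.954), Drosha like Stard7 (0.996) and Wdr82 (0.995), and Dgcr8 like Ddi2 (0.989) and Gtf3c4 (0.976). Dicer1 was like Rabggtb (0.988), Tarbp2 like Cxxc1 (0.969) and Dpp3 (0.967), and Prkra like Higd1a (0.957) and Copg2 (0.947). Stau1 was most like Sfr1 (0.976) and U2surp (0.973), Pnpt1 like Pias2 (0.990) and Fermt2 (0.988), and Supv3l1 like Timm17a (0.992) and AF357399 (0.986). No member was among the nearest genes of another member.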

How the data were processed

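The submitters' processing notes name HTSeq, STAR, SAMtools, Trim Galore and cutadapt, without versions or order, and the builds GRCm38.p6 and mm10. The deposited sample columns of the 12 libraries hold a normalized signal, read counts that the authors had divided by a size factor of the library, as the values show. The deposited tables also hold the authors' log2 fold changes of VC over Bub1KO, their test score and p-values with adjusted values. The mean column is the same in both tables, so 1 normalization covers both, and whole reads were recovered for 100% of values above 0 (tolerance 0.01). Libraries held 19380726 to 33087366 reads in genes.

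Limma-trend (limma 3.58.1, R 4.3.3) was fitted to log2(value + 1), which understates changes of low genes, for 14721 genes at 10 or more in at least 3 of 12 libraries, with Benjamini-Hochberg adjustment and a threshold of 0.05. Genotypes were compared on their own 6 libraries, and radiation and interaction on all 12. Alternatives were a pseudocount of 5, no filter, all 12 libraries, edgeR 4.0.16 and DESeq2 1.42.0 on recovered reads, GC trends removed, a replicate block, each library left out and, added after the data were seen, 6 libraries for radiation. Fits were tested on simulated data with larger changes than those of the members. The simulation held no GC trend and no library that stood apart, so it does not cover changes as small as these or such libraries.

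Positions are from GENCODE M21 (GRCm38), which matched 55240 of 55421 identifiers. Genes named are the 9 members, Bub1, the 2 genes with the smallest adjusted p below the threshold per pathway role and comparison, and the 2 genes most like each member, with exceptions stated; some genes that the rule names are not reported here. Members and lists were chosen with earlier results of these data known.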

Additional observations from a re-analysis of the deposited data

How the results depend on the processing

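Of 675 values of the members under alternatives, 614 kept their direction and side of the threshold, 16 calls were lost, 12 were gained and 33 values changed sign. The radiation calls for Drosha, Dgcr8, Dicer1 and Pnpt1 in both genotypes, Stau1 in VC and Adar in Bub1KO held in 14 of 14 alternatives each. Members called between untreated genotypes, 0 in the main analysis, were 1 with all 12 libraries and 1 with GC trends removed, and 0 to 1 with a library left out. Between irradiated genotypes they were 2, against 0 with no filter, 0 with all 12 libraries, 1 with the replicate block and GC trends removed, and 0 to 2 with a library left out. All genes called between untreated genotypes were 591, against 329 with no filter, 1769 with all 12 libraries, 1733 with GC trends removed, 312 with the replicate block, 1427 with the block and GC trends removed, and 172 to 2736 with a library left out, the highest without Bub1KO untreated replicate 1. Between irradiated genotypes they were 4512, against 2062 with no filter and 2105 with all 12 libraries. For the interaction they were 81, against 283 with DESeq2, 418 with GC trends removed, 47 with the replicate block, 278 with the block and GC trends removed, and 33 to 1447 with a library left out, again highest without Bub1KO untreated replicate 1. Fewer libraries or a shared spread are part of how these alternatives are built, and the cause of the other shifts was not tested.

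None of the values that changed sign was called before or after. With GC trends removed, with or without the replicate block, the irradiated genotype difference was -0.010 for Dicer1 and -0.017 for Supv3l1, and the interaction was -0.014 for Prkra. The interaction of Pnpt1 was 0.036 with edgeR and 0.011 with DESeq2. With a library left out, the untreated genotype difference ran from -0.040 to 0.098 for Adar, -0.467 to 0.029 for Tarbp2, -0.214 to 0.041 for Pnpt1 and -0.077 to 0.003 for Supv3l1. The irradiated one ran from -0.028 to 0.002 for Drosha and -0.040 to 0.026 for Dicer1. The interaction ran from -0.137 to 0.359 for Tarbp2, -0.050 to 0.079 for Prkra and -0.150 to 0.105 for Pnpt1. Both ends that cross 0 for Tarbp2 came without Bub1KO untreated replicate 1. Deviations of same-numbered libraries from their group means were weakly correlated (r from -0.193 to 0.196). With 3 libraries per group this cannot settle whether the numbers pair them. The replicate block alone changed no member's call. The number of libraries, 3 per group, limits the precision.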
